A study of Mus musculus with 18 samples.

Results

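The genes Mtfr2, Fam117a, Tor3a, Cpeb4, Dnmt3b and Eri2 were chosen by their levels in these libraries, because they were among the few genes that were higher in AT3 cells given A-241 or A-485, inhibitors of P300 and CBP. They are 6 of the 43629 genes in the count table, each with 1 row, and all 6 passed the filter on low counts that left 11964 genes. The differences with either inhibitor therefore chose these genes, so they are given as values, and nothing is read from the calls counted among them. The response to IFNγ averaged over the pre-treatments did not enter the choice and was tested. Genes of related pathways and of the cell cycle were also tested, in lists chosen with earlier results of these data known.

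AT3 is a mouse mammary carcinoma line that serves as a model of triple-negative breast cancer. Its cells were pre-treated for 1 h with DMSO, with A-241 at 250 nM or with A-485 at 1000 nM, and then received IFNγ or its vehicle for another 2 h, so that every library was taken after 3 h in all. This gave 6 conditions (DMSO, A-241, A-485, IFNγ, A-241+IFNγ and A-485+IFNγ) with 3 libraries each. The doses of the inhibitors differ, and for the libraries with IFNγ they are those of the study's methods. All conditions come from this 1 line, and the labels call the triplicates biological while the methods call them technical, so n counts libraries and p values may measure technical spread.

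P300 and CBP are closely related lysine acetyltransferases. They are recruited by transcription factors and acetylate histones, including lysine 27 of histone H3 at active enhancers and promoters, and both compounds block this catalytic activity. Acute loss of that activity is mostly associated with lower transcription of nearby genes, which makes genes with a higher mRNA level the less common class. IFNγ signals through JAK kinases and induces IRF1 and a wide set of interferon-stimulated genes.

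The 6 genes have unrelated products. Mtfr2 encodes a mitochondrial fission regulator. Tor3a encodes a torsin, an AAA+ ATPase of the endoplasmic reticulum, and is known as an interferon-responsive gene. Cpeb4 encodes an RNA-binding protein that controls cytoplasmic polyadenylation and translation, Dnmt3b a de novo DNA methyltransferase, and Eri2 a protein of the ERI family of exoribonucleases. Fam117a is also named C/EBP-induced protein, and its function is little known.

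All 6 are protein-coding and lie apart from each other. In GRCm38, with GENCODE vM21 gene bounds, Mtfr2 lies on the plus strand at chr10:20347770-20361304 and Tor3a on the minus strand at chr1:156653617-156674356. Fam117a (chr11:95337018-95381872) and Cpeb4 (chr11:31872211-31935634) are both on the plus strand of chromosome 11. Dnmt3b is on the plus strand at chr2:153649450-153687730 and Eri2 on the minus strand at chr7:119768679-119794058. The reads come from the 3′ ends of transcripts, so the counts measure mRNA ends and not the use of a promoter.

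A RefSeq promoter (GRCm38.p6) was found for 5 of the 6 genes, and none for Tor3a. Over the 250 bases before the start, these 5 held 11 to 21 CpG dinucleotides, against a median of 6.0 over 32817 such windows. Fewer CpG were held by 64.5% of all windows for the lowest of the 5 and by 83.7% for the highest. The windows compared were not limited to genes that passed the filter on low counts. The CCAAT box, read as CCAAT on either strand, occurred 4 times in Fam117a, 3 times in Mtfr2, 1 time in Cpeb4 and not in Dnmt3b or Eri2. At least 3 such boxes were held by 2.79% of all windows and at least 1 by 33.8%. The windows of Mtfr2 and Fam117a, the genes of the 6 with the highest fold changes for A-241 against DMSO, are shown with these boxes in capitals. They are chr10:20347569-20347769 for Mtfr2, which stops before the GENCODE gene start, and chr11:95336768-95337017 for Fam117a, both 5′ to 3′ on the plus strand.
Mtfr2: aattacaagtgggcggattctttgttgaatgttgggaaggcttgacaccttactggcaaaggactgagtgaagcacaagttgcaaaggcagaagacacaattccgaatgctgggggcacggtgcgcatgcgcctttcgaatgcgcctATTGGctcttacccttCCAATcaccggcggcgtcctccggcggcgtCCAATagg
Fam117a: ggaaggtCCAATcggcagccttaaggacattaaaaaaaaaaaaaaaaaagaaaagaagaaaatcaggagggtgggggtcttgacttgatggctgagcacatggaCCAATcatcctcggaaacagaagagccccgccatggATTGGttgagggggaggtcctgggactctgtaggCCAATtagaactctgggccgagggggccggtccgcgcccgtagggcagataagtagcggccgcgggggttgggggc
Dnmt3b is shown as the contrast, with a GC share of 75.2% and no CCAAT box. The capitals in its window, chr2:153649199-153649448 on the plus strand, mark the 3 GC boxes (GGGCGG on either strand), a number that 8.47% of all windows reach.
Dnmt3b: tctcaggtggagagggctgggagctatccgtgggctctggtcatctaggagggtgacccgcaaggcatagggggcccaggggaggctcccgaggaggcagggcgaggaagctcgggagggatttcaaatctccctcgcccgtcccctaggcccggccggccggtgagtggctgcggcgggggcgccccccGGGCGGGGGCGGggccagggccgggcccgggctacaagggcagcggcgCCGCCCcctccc
Mtfr2, Cpeb4 and Eri2 held 1 GC box each, where 32.7% of all windows held at least 1. The core of the interferon-stimulated response element, written GAAANNGAA on either strand, was found in Fam117a alone of the 5 windows and in 7.12% of all windows. The E2F sites TTTCGCGC and TTTGGCGC (0.655% of all windows), the full CRE TGACGTCA (1.55%) and the E box CACGTG (6.02%) had no match in the 5 windows, and the shorter CRE core TGACG (17.7%) had 1 match, in Eri2. These are matches of letters only, and their relation to the levels of the genes was not tested.

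Between 3417167 and 7856830 counts were obtained per library, and 3 counts, taken as the floor, stand for 0.382 to 0.878 CPM (a gene's counts scaled to a fixed library total). A single gene, Gm42418, took 7.11 to 23.0% of a library's counts, and it was highest in DMSO replicate 3 and IFNγ replicate 2. These libraries also lay farthest from their conditions, with a root mean square deviation in log2 CPM of 0.73 and 0.76, where the others had 0.23 to 0.51. Both are control libraries of the inhibitor comparisons, so the values of the 6 genes are given with and without them. The replicates of a condition differed beyond counting noise in all 18 pairs, with a chi-square of 2.13 to 135 per degree of freedom.

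Markers of epithelial cells were present and those of immune and endothelial cells were low. The 6 epithelial markers summed to 968 to 1698 CPM with Krt19 near 0, and the 5 mesenchymal markers to 437 to 825 CPM with Col1a1 and Col1a2 near 0. The 5 immune markers summed to 0.626 to 19.2 CPM and the 3 endothelial markers to 0.573 to 4.11 CPM, with Adgre1 and Cdh5 at 0 in every library. Of the receptors that triple-negative tumours lack, Esr1 stayed at or under 0.193 CPM and Pgr at or under 2.99 CPM, while Erbb2 was at 10.8 to 19.3 CPM. The epithelial sum was at 1425 to 1698 CPM with DMSO and at 968 to 1010 CPM with A-241, and with A-485 at 1046 to 1159 CPM. It was at 1126 to 1320 CPM with IFNγ, at 1004 to 1086 CPM with A-241+IFNγ and at 1013 to 1134 CPM with A-485+IFNγ, so DMSO lay above the other 5 conditions. With A-241 the keratin gene Krt14 fell by 1.50 in log2 fold change (adjusted p = 0.00175, edgeR) and Krt18 by 0.84 (adjusted p = 0.00186, edgeR). The mesenchymal sum was at 609 to 740 CPM with DMSO, at 437 to 504 CPM with A-241 and at 554 to 593 CPM with A-485, both below DMSO. With IFNγ it was at 559 to 825 CPM, with A-241+IFNγ at 474 to 599 CPM and with A-485+IFNγ at 602 to 714 CPM. Fn1, the fibronectin gene, was the 1 mesenchymal marker called lower with A-241, at -0.65 (adjusted p = 0.00784, edgeR), and it shares 292 exon bases with Apol7d. The part of these shifts in the values of the 6 genes was not tested, and in bulk samples fewer cells of a type and less RNA per cell cannot be told apart.

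Mtfr2 showed the highest fold change of the 6 for A-241 against DMSO and was as high with IFNγ alone. It was at 3.79, 3.00 and 2.76 CPM with DMSO, at 15.6, 11.6 and 12.0 CPM with A-241, and at 8.83, 5.92 and 7.20 CPM with A-485. The raw counts behind the DMSO values are 18, 19 and 8. Every library of either inhibitor lay above every DMSO library, and the A-241 libraries lay above those of A-485. With IFNγ alone the gene was at 14.4, 7.75 and 14.0 CPM, with A-241+IFNγ at 11.5, 11.6 and 13.4 CPM and with A-485+IFNγ at 12.2, 16.7 and 11.8 CPM. These 3 conditions overlapped each other and also the A-241 libraries without IFNγ. The log2 fold change was 2.02 (SE 0.27) for A-241 against DMSO and 1.18 (SE 0.28) for A-485, but -0.01 (SE 0.24) for A-241+IFNγ against IFNγ and 0.15 (SE 0.24) for A-485+IFNγ, with 3 libraries in each condition. The last 2 differences are within the spread of the libraries, and their sign changed in some alternatives. The 95% interval around the difference of A-241+IFNγ from IFNγ ran from -0.52 to 0.50.

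Fam117a was higher with both inhibitors in both settings and showed no such convergence. Its level was 3.16, 3.16 and 2.07 CPM with DMSO, 11.1, 7.21 and 8.22 CPM with A-241, and 5.82, 5.15 and 6.97 CPM with A-485. With IFNγ the levels were 2.70, 1.19 and 2.80 CPM, with A-241+IFNγ 12.4, 10.4 and 7.42 CPM, and with A-485+IFNγ 4.59, 5.50 and 5.70 CPM. All 12 libraries with an inhibitor lay above all 6 without one, and in either setting every A-241 library lay above every A-485 library. Its log2 fold change was 1.61 (SE 0.30) with A-241 and 1.05 (SE 0.30) with A-485 against DMSO, and 2.09 (SE 0.29) and 1.15 (SE 0.30) against IFNγ. The lowest library, IFNγ replicate 2, holds 4 counts, so the fold changes rest on small numbers. The antisense genes Gm11521 and Gm29477 share 28 and 239 exon bases with Fam117a and had 0 counts in every library.

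Tor3a was higher with either inhibitor and with IFNγ, and highest where both were given. With DMSO it was at 8.64, 10.7 and 5.87 CPM, with A-241 at 16.6, 19.6 and 19.2 CPM and with A-485 at 18.9, 19.5 and 19.3 CPM. Without IFNγ the inhibitors overlapped each other, and both lay above DMSO. With IFNγ alone the level was 18.2, 12.2 and 17.8 CPM, with A-241+IFNγ 39.4, 34.9 and 40.0 CPM and with A-485+IFNγ 26.6, 25.9 and 29.4 CPM. The A-241+IFNγ libraries lay above those of all other conditions, and the A-485+IFNγ libraries above all but those. The log2 fold change was 1.10 (SE 0.20) for A-241 and 1.16 (SE 0.20) for A-485 against DMSO, and 1.23 (SE 0.19) and 0.75 (SE 0.19) against IFNγ.

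Cpeb4 separated the inhibitors at the doses used. It was at 5.69, 7.74 and 6.22 CPM with DMSO, at 14.7, 18.4 and 15.0 CPM with A-241, and at 6.53, 6.30 and 6.27 CPM with A-485, which overlapped DMSO. IFNγ alone gave 7.25, 7.45 and 6.30 CPM, A-241+IFNγ 12.8, 20.5 and 17.3 CPM, and A-485+IFNγ 9.95, 10.4 and 9.50 CPM. With IFNγ present the A-485 libraries lay above those without an inhibitor and below those of A-241. For A-241 the log2 fold change was 1.28 both against DMSO (SE 0.20) and against IFNγ (SE 0.19). For A-485 it was -0.05 (SE 0.21, 95% interval from -0.50 to 0.40) and 0.51 (SE 0.20).

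Dnmt3b was the only gene of the 6 with a higher mean for A-485 than for A-241 in both settings. It was at 6.75, 7.58 and 4.49 CPM with DMSO, at 6.94, 9.61 and 10.1 CPM with A-241, and at 12.4, 10.9 and 11.9 CPM with A-485. The A-241 libraries overlapped DMSO and the A-485 libraries did not. With IFNγ the levels were 5.16, 2.98 and 4.37 CPM, with A-241+IFNγ 8.70, 9.13 and 7.42 CPM and with A-485+IFNγ 12.1, 11.6 and 9.69 CPM, without overlap between these conditions. The log2 fold change was 0.47 (SE 0.23) for A-241 and 0.86 (SE 0.23) for A-485 against DMSO, and 0.97 (SE 0.24) and 1.37 (SE 0.23) against IFNγ. Dnmt3bos, which overlaps the gene on the opposite strand, shares no exon base with it and had 11 counts over all libraries.

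Eri2 lay clear of its control with either inhibitor in the presence of IFNγ, where the control itself was low, and overlapped it without IFNγ. It was at 22.8, 24.0 and 21.4 CPM with DMSO, at 35.5, 22.0 and 28.9 CPM with A-241, and at 23.8, 19.8 and 23.0 CPM with A-485, and the 3 conditions overlapped. IFNγ alone gave 15.5, 14.9 and 15.7 CPM, A-241+IFNγ 28.1, 27.2 and 24.7 CPM, and A-485+IFNγ 27.9, 28.7 and 31.3 CPM. The IFNγ libraries lay below all other 15, and both combinations lay above DMSO. The log2 fold change was 0.34 (SE 0.16) with A-241 and -0.04 (SE 0.16) with A-485 against DMSO, and 0.79 (SE 0.16) and 0.93 (SE 0.16) against IFNγ. Eri2 shares 1962 exon bases with Acsm3, which had 0 counts, and 53 with Rexo5, which had 171 counts over all libraries.

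**Figure D1:**
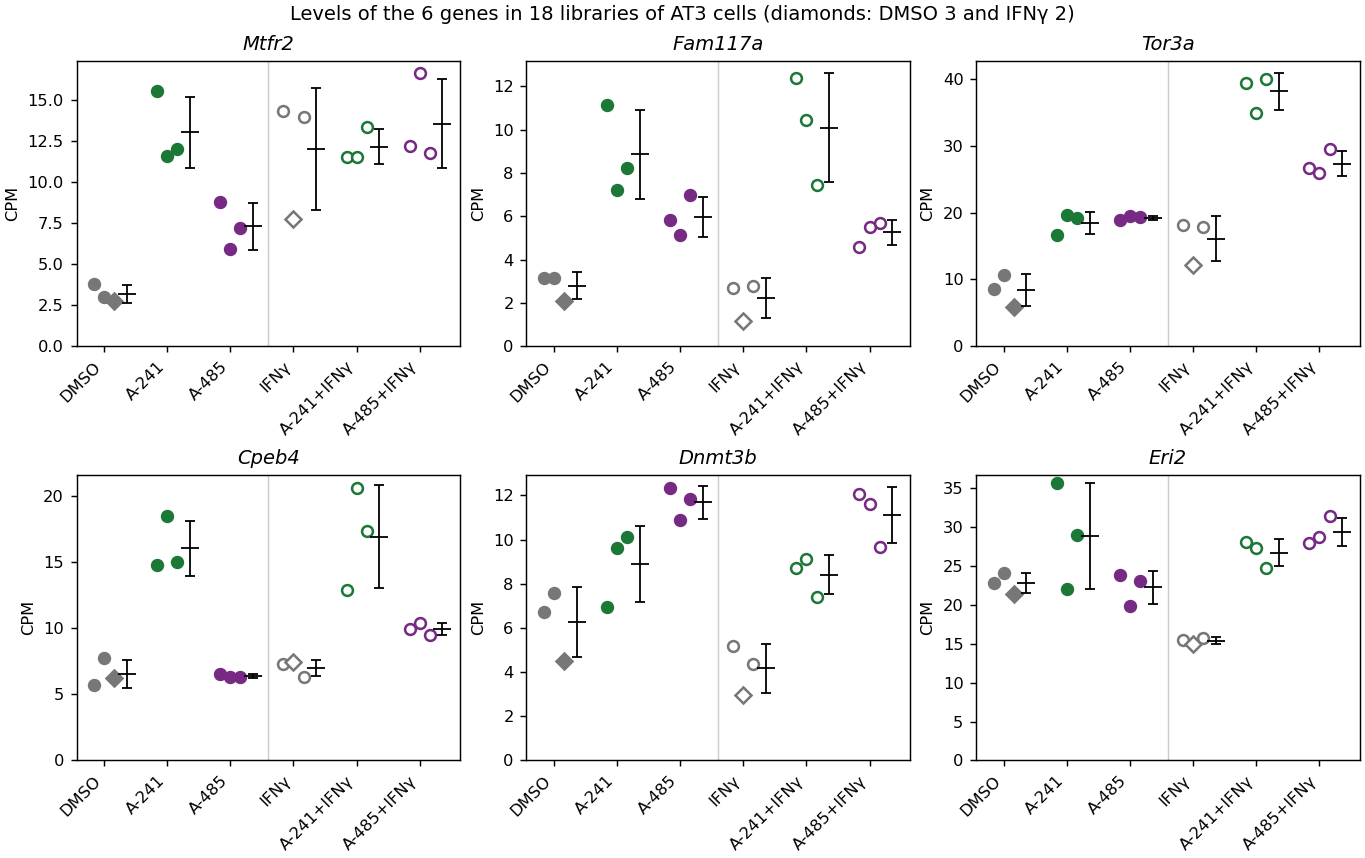
Level of each gene in CPM (linear axis from 0) in the 3 libraries of each condition, with the mean and SD in black at the right of the points. Filled points had no IFNγ and open points had IFNγ, and diamonds are DMSO replicate 3 and IFNγ replicate 2. Fam117a is higher in all 12 libraries with an inhibitor, Tor3a is highest with A-241+IFNγ at 34.9 to 40.0 CPM, and Mtfr2 is at 7.75 CPM or more in every library with IFNγ.

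The threshold for a call was a Benjamini-Hochberg adjusted p of 0.01 over the 11964 genes in edgeR's quasi-likelihood test. By it, 4 of the 6 genes (Mtfr2, Fam117a, Tor3a and Cpeb4) were higher with A-241 than with DMSO, beside 0.827% of all genes tested, and 1 (Tor3a) was higher with A-485, beside 0.0418%. Against IFNγ, 4 (Fam117a, Tor3a, Cpeb4 and Eri2) were higher with A-241+IFNγ, beside 0.543% of all genes, and 2 (Dnmt3b and Eri2) with A-485+IFNγ, beside 0.0167%. Both calls with A-485+IFNγ were lost with the replicate block, in a fit of the 6 libraries compared and without any 1 of those 6. The call of Tor3a with A-485 was lost in the first 2 of these fits and without any 1 library except DMSO replicate 2. The 4 calls with A-241 and the 4 with A-241+IFNγ were kept with the replicate block and lost in the fit of 6 libraries. Without 1 library, Tor3a lost its call with A-241 for DMSO replicate 1, A-241 replicate 2 or A-241 replicate 3, Fam117a for A-241 replicate 1, and Eri2 with A-241+IFNγ for any of the 6. As these comparisons chose the genes, nothing is read from the counts. The same fits called 3.53, 0.619, 3.54 and 0.535% of all genes lower in this order, and none of the 6 genes was among them. None of the 6 was called in all 4 comparisons. Next to the threshold among the genes higher with A-241, Mon1b lay just inside with a log2 fold change of 1.24 (SE 0.28) and Trmt10b just outside with 1.01 (SE 0.23). With A-485 these were Ifit1 with 1.25 (SE 0.23) and C2cd2l with 0.85 (SE 0.18). With IFNγ they were Il11ra1 with 0.86 (SE 0.19) and Zfp101 with 1.37 (SE 0.31) for A-241, and Eri2 itself and Fam8a1 with 1.07 (SE 0.20) for A-485.

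**Figure D2:**
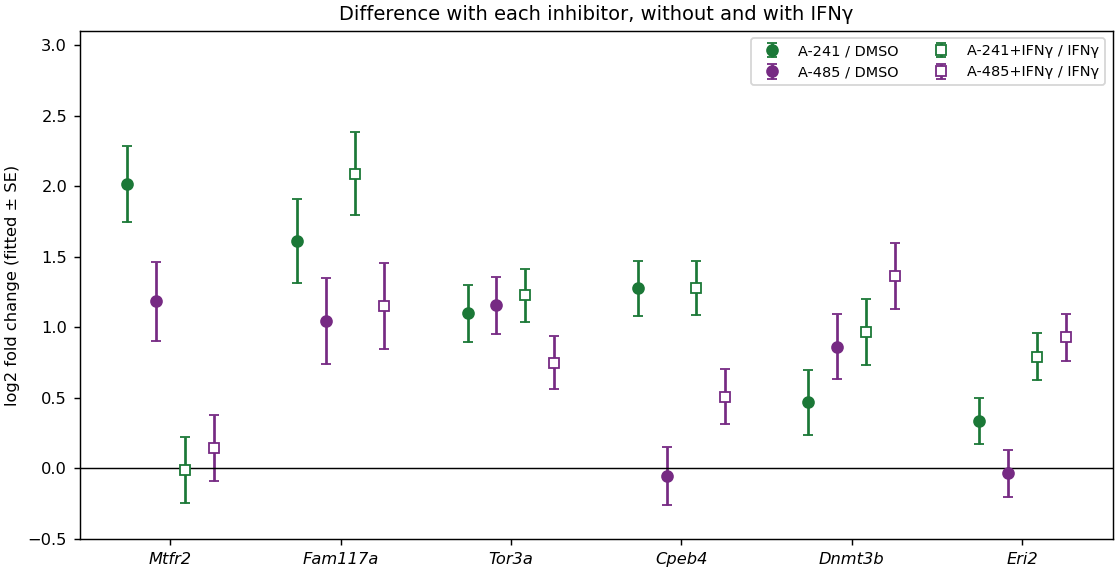
Fitted log2 fold change with its standard error for each gene, for A-241 (green) and A-485 (purple) against DMSO (filled circles) and, in the presence of IFNγ, against IFNγ alone (open squares). The values of Mtfr2 are 2.02 and 1.18 without IFNγ and -0.01 and 0.15 with it, and Cpeb4 with A-485 alone is at -0.05.

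Leaving out both libraries rich in Gm42418 lowered most of these values and turned only the sign of the difference of Mtfr2 between A-485+IFNγ and IFNγ, which became -0.08 (SE 0.20). Against DMSO with A-241, the log2 fold change became 1.92 for Mtfr2, 1.44 for Fam117a, 0.88 for Tor3a, 1.20 for Cpeb4, 0.27 for Dnmt3b and 0.26 for Eri2. Against DMSO with A-485, it became 1.09, 0.88, 0.94, -0.12, 0.67 and -0.11 in the same order. Against IFNγ, A-241+IFNγ gave -0.23 for Mtfr2, 1.86 for Fam117a, 1.07 for Tor3a, 1.31 for Cpeb4, 0.80 for Dnmt3b and 0.77 for Eri2. A-485+IFNγ gave 0.92 for Fam117a, 0.59 for Tor3a, 0.53 for Cpeb4, 1.19 for Dnmt3b and 0.90 for Eri2. In this fit the same genes of the 6 were called in each of the 4 comparisons as with all libraries.

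The inhibitors were given at different doses, so their values are set side by side as a description. Without IFNγ, the level with A-241 (250 nM) over that with A-485 (1000 nM) was 1.33 (SE 0.20) on the log2 scale for Cpeb4, 0.83 (SE 0.25) for Mtfr2, 0.57 (SE 0.27) for Fam117a and 0.37 (SE 0.16) for Eri2. It was -0.06 (SE 0.19) for Tor3a and -0.39 (SE 0.22) for Dnmt3b. Cpeb4 was the 1 gene of the 6 past the threshold, where 0.0167% of all genes were called higher with A-241 than with A-485. It was not past it without A-241 replicate 2 or any 1 of the A-485 libraries. This comparison shares libraries with those that chose the genes, so nothing is read from the call. With IFNγ, the value was 0.94 (SE 0.27) for Fam117a, 0.77 (SE 0.19) for Cpeb4 and 0.48 (SE 0.18) for Tor3a, with no overlap between the inhibitors in these genes. It was -0.16 (SE 0.24) for Mtfr2, -0.40 (SE 0.22) for Dnmt3b and -0.14 (SE 0.16) for Eri2. None of the 6 was past the threshold. Of all genes, 0.00836% were called higher with A-241+IFNγ in this comparison, a share that leaves out genes called in the other direction.

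The response to IFNγ, averaged over the 3 pre-treatments, is a comparison of 9 libraries with 9 that no difference between pre-treatments enters. Mtfr2 and Tor3a rose and the other 4 genes were not called, where 1.74% of all genes tested were called higher and 0.276% lower. Tor3a rose by 0.82 on the log2 scale (SE 0.11, adjusted p = 0.000172, edgeR) and Mtfr2 by 0.90 (SE 0.14, adjusted p = 0.000962, edgeR). Cpeb4 gave 0.27 (SE 0.11, adjusted p = 0.41), Dnmt3b -0.24 (SE 0.13, adjusted p = 0.661), Fam117a -0.09 (SE 0.17, adjusted p = 0.998) and Eri2 -0.09 (SE 0.09, adjusted p = 0.975). The 95% interval was -0.46 to 0.27 for Fam117a and -0.30 to 0.11 for Eri2. Without both Gm42418-rich libraries Mtfr2 gave 0.95 (adjusted p = 4.22e-05, edgeR) and Tor3a 0.81 (adjusted p = 1.27e-06, edgeR).

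The responses after each pre-treatment share libraries with the comparisons that chose the genes and so are given as values only. For Mtfr2 the log2 fold change with IFNγ was 1.92 (SE 0.27) after DMSO, 0.89 (SE 0.24) after A-485 and -0.10 (SE 0.24) after A-241. For Tor3a the values were 0.91 (SE 0.20), 0.51 (SE 0.19) and 1.04 (SE 0.19) in the same order, and in each pre-treatment all libraries with IFNγ lay above those without. Tor3a thus had 1 direction throughout, while the Mtfr2 libraries with A-241 overlapped whether or not IFNγ was given. For Eri2 the values were -0.56 (SE 0.17) after DMSO, 0.40 (SE 0.16) after A-485 and -0.11 (SE 0.16) after A-241. For Cpeb4 they were 0.08 (SE 0.20), 0.64 (SE 0.20) and 0.08 (SE 0.18), for Dnmt3b -0.58 (SE 0.24), -0.07 (SE 0.22) and -0.08 (SE 0.23), and for Fam117a -0.29 (SE 0.33), -0.18 (SE 0.28) and 0.19 (SE 0.26). The differences between pre-treatments were not tested, because the comparisons that chose the genes are part of them.

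**Figure D3:**
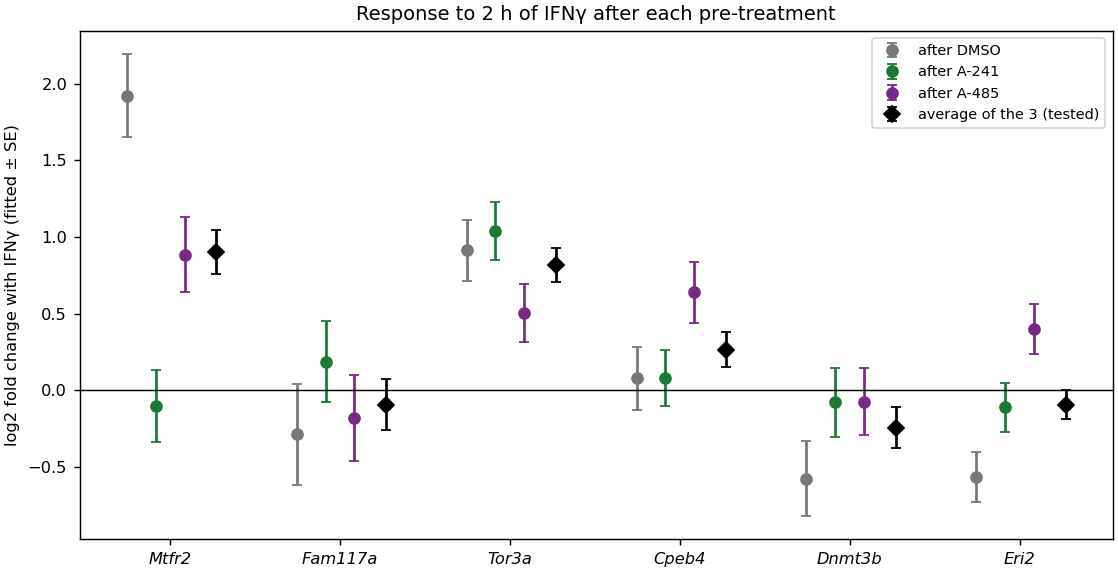
Fitted log2 fold change with IFNγ and its standard error for each gene after DMSO (grey), A-241 (green) and A-485 (purple), with the tested average of the 3 as black diamonds. Mtfr2 is at 1.92 after DMSO and -0.10 after A-241, and Tor3a is between 0.51 and 1.04 after every pre-treatment.

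Known IFNγ targets served as a check of the treatment and, where they were called in an inhibitor comparison with IFNγ, were lower. Irf1, Gbp2 and Cxcl10, which encode a transcription factor, a guanylate-binding protein and a chemokine, were all called higher in the averaged IFNγ response, with log2 fold changes of 4.60, 5.17 and 6.77. Against IFNγ, A-241+IFNγ gave -2.01 for Gbp2 (adjusted p = 4.48e-06, edgeR) and -2.97 for Cxcl10 (adjusted p = 3.61e-05, edgeR), both called lower, and -0.87 for Irf1, which was not called. A-485+IFNγ gave between -0.80 and -0.35 for these 3 genes, which were not called. In the same comparisons Tor3a was at 1.23 and 0.75, but it was chosen as higher with an inhibitor, so nothing is read from its sign. Irf1, Gbp2 and Cxcl10 share 24 to 135 exon bases with another gene.

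Genes of related pathways were tested next, and few were called. Of all genes tested, 0.827% were called higher and 3.53% lower with A-241 against DMSO, and 0.0418 and 0.619% with A-485. Against IFNγ the shares were 0.543 and 3.54% with A-241+IFNγ, and 0.0167 and 0.535% with A-485+IFNγ. At these shares a short list can hold no call, so the number of calls is not read as a result. Ep300 and Crebbp, the genes of the targets, were not called in any inhibitor comparison, with log2 fold changes between 0.22 and 0.47. All 13 genes of mitochondrial dynamics were tested and none was called with an inhibitor or with IFNγ. Their median was -0.03 with A-241 and -0.02 with A-485 against DMSO, where the median over all genes was 0.01 and -0.004. The abundant members Yme1l1, a protease of the inner membrane, Dnm1l, the fission GTPase, and Mfn1, a fusion GTPase, were at -0.08, 0.18 and 0.08 with A-241. Of the torsins and nuclear envelope genes 12 of 14 could be tested and none was called, with a median of 0.25 for A-241 and 0.22 for A-485 against DMSO. Among them emerin (Emd) was at 0.17 and the lamins Lmnb1 and Lmna at 0.05 and -0.97 with A-241. Of the CPEB and cytoplasmic poly(A) genes 22 of 23 were tested and none was called. Their medians lay between -0.11 and 0.09 in the 4 comparisons, and Pabpc1, the main poly(A)-binding protein, and Cpsf2 were at -0.12 and -0.02 with A-241. Of the genes of DNA methylation and its removal 14 of 16 were tested and none was called either, with a median of 0.24 for A-241 and 0.09 for A-485. Dnmt1, the maintenance methyltransferase, was at 0.31, the glycosylase gene Tdg at -0.29 and Hells, a chromatin remodeller, at 1.05 (adjusted p = 0.033, edgeR) with A-241.

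Calls were found in 3 lists. Of the 3′ exonucleases 14 of 15 were tested, and Aen, an exonuclease known as a p53 target, fell by 0.94 (SE 0.17, adjusted p = 0.00177, edgeR) with A-241. That call was lost without DMSO replicate 1, A-241 replicate 2 or A-241 replicate 3, at an adjusted p of 0.0106, 0.0155 and 0.012 (edgeR). Rexo4, Rexo2 and Exosc10 were at 0.06, 0.01 and 0.19. Of the FAM117 and C/EBP genes 6 of 7 were tested, and 1 was called. Cebpb, which encodes the transcription factor C/EBPβ, fell by 1.28 (SE 0.20, adjusted p = 0.00049, edgeR) with A-241 against DMSO. It fell by 2.33 (SE 0.20, adjusted p = 2.05e-06, edgeR) with A-241+IFNγ and by 1.55 (SE 0.20, adjusted p = 0.00057, edgeR) with A-485+IFNγ, both against IFNγ. With A-485 alone it was at -0.26 (SE 0.19) and not called. Cebpb shares 312 exon bases with Tmem189, so reads there count for both genes. With A-241 against DMSO 1 of the 6 genes of this list was above 0 and the median was -0.87, while Fam117a was at 1.61. Cebpg and Ddit3 were at 0.17 and -0.49, and Cebpd and Fam117b at -0.98 and -0.76, none of them called. Several of the genes named from these lists, Mcm7 and Cebpd the most with 557 and 562 bases, also share exon bases with another gene.

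All 24 cell cycle genes were tested, and 1 was called. Cdc6, which loads the MCM helicase at replication origins, rose by 1.01 (SE 0.15, adjusted p = 0.000486, edgeR) with A-241 against DMSO and by 1.12 (SE 0.15, adjusted p = 0.000169, edgeR) with A-241+IFNγ against IFNγ. With A-485 it was at 0.35 and 0.53 and not called. With A-241 against DMSO 21 of the 24 genes were above 0, with a median of 0.39, where 51.0% of all genes tested were above 0. With A-485 against DMSO 18 of the 24 were above 0 (median 0.20), and against IFNγ 19 with A-241+IFNγ (median 0.21) and 14 with A-485+IFNγ (median 0.16), where 49.7, 48.4 and 46.9% of all genes were above 0. The abundant genes Top2a, Plk1 and Mcm7 were at 0.11, 0.56 and -0.25. In the averaged IFNγ response none of the 24 was called and the median was 0.04, and Cebpb was the 1 gene of all these lists to be called, at -0.57 (adjusted p = 0.0067, edgeR), a call that was lost in 16 of the 24 alternatives at an adjusted p of up to 0.0292.

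**Figure D4:**
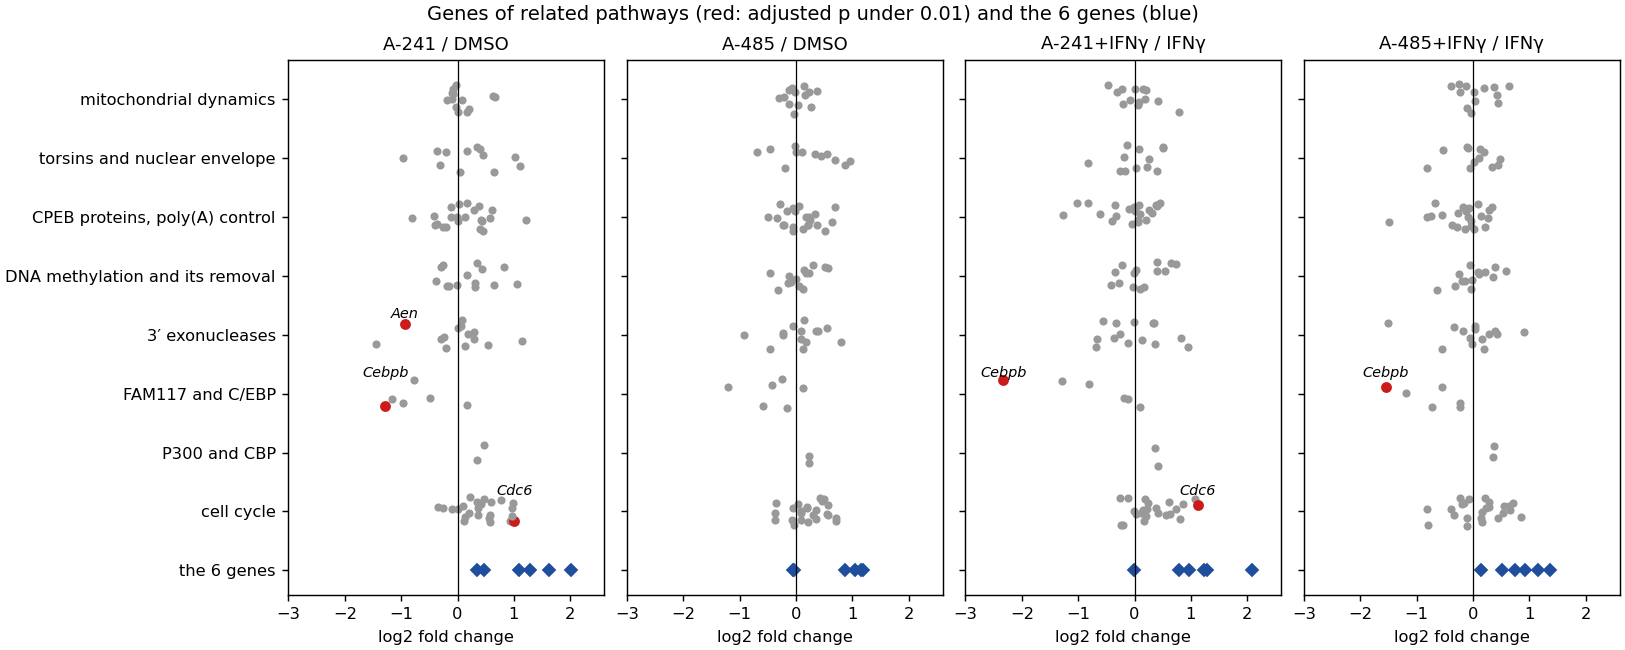
Fitted log2 fold change of each tested gene of the pathway lists in the 4 inhibitor comparisons, with genes past an adjusted p of 0.01 in red and named, and the 6 chosen genes as blue diamonds in the lowest line. Vertical scatter within a list has no meaning. Of the lists, only FAM117 and C/EBP, the 3′ exonucleases and cell cycle hold a called gene.

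Genes next to the 6 on the chromosome were looked at because 3′ reads that run past an end could count for a neighbour. Slc35b1 begins 2820 bases beyond the end of Fam117a, and Bclaf1 ends 3157 bases before the start of Mtfr2, each on the same strand as its neighbour. In the 4 inhibitor comparisons Bclaf1 was between -0.11 and -0.01 and Slc35b1 between -0.28 and -0.05 on the log2 scale, and neither was called. Abl2 and Fam20b, 4049 and 4176 bases from Tor3a, were between -0.56 and 0.20 and not called. Rexo5 starts 52 bases from Eri2 on the opposite strand, and it was between -0.35 and 0.36 with a standard error of 0.47 to 0.50, at a depth that could not show a difference of the size seen for Eri2.

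Across the 18 libraries the 6 genes varied together only in part. The Pearson correlation of log2 CPM over the 15 pairs of genes had a median of 0.56 and ran from 0.21 for Mtfr2 with Dnmt3b to 0.76 for Mtfr2 with Tor3a. Within conditions it had a median of 0.36 and ran from -0.34 to 0.76. The points share libraries, depth and treatments, so these values describe the profiles. Of 9842 other genes with at least 20 counts on average, the most like Fam117a were Snapc1 (r = 0.95), Tlx3 (0.95) and Cdc6 (0.94). For Mtfr2 they were 1110038F14Rik (0.90), Katna1 (0.86) and Ifih1 (0.86), an RNA sensor that interferons induce. For Tor3a they were Hap1 (0.92), the splicing factor gene Srsf6 (0.90) and Smpd1 (0.88), and for Cpeb4 Sdr42e1 (0.88), Lrif1 (0.87) and the transcription factor gene Mef2a (0.87). The genes most like Dnmt3b were Cwc22, Fubp1 and March9 (all 0.87), and those most like Eri2 were Tex9 (0.86), Dcbld1 (0.85) and Tstd2 (0.84). The mean standardised profile of the 6 genes was most like those of Map2k4 (0.96), Cybc1 (0.94), Dtwd2 (0.94), Srsf6 (0.93) and Luc7l2 (0.93).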

How the data were processed

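QuantSeq 3′ mRNA libraries of AT3 cells were analysed, 3 in each of 6 conditions. The authors demultiplexed reads with bcl2fastq 2.17.1.14, checked them with FastQC 0.11.5, trimmed them with cutadapt 1.7, aligned them to GRCm38 with HISAT2 2.1.0 and used featureCounts over exons. What they deposited are these counts, not normalized. A read over several genes was counted for each, and no strand option is stated. The release of the annotation is not given in the sources used here. Of 43629 identifiers, 42462 (97.3%) matched a GENCODE vM21 symbol.

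In edgeR 4.0.16 (R 4.3.3), filterByExpr removed low genes, TMM factors set the effective library sizes, and 1 model of 6 condition means was fitted to all 18 libraries with glmQLFit. Each comparison was tested with glmQLFTest, with Benjamini-Hochberg adjustment over 11964 genes and a threshold of 0.01. Genes varied between replicates with a common biological coefficient of variation of 0.263. Levels of the genes are TMM-scaled CPM, marker sums are CPM of total counts, and log2 CPM has a prior count of 2. Standard errors are the fold change over the root of the F statistic, and 95% intervals use 12 residual degrees of freedom. The method was tested on simulated data.

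The genes and lists were chosen with earlier results of these data known. The text names all 6 genes in every comparison, of each list the called genes and up to 3 others of highest mean log2 CPM, the 3 genes most like each gene and the 5 most like their mean, and the genes next to the threshold. Fam117b, Krt14, Krt18, Fn1 and the neighbouring genes were added after their values were seen. Some genes named by the rule are not reported here. Alternatives were DESeq2 1.42.0, limma-voom (limma 3.58.1), RLE size factors, no filter, a replicate block, both Gm42418-rich libraries left out, each library left out, and fits of only the 6 libraries compared. Promoters were read from RefSeq (GRCm38.p6) in Python 3.11.15 with pandas 2.3.3, and figures were drawn with matplotlib 3.10.9.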

Additional observations from a re-analysis of the deposited data

How the results depend on the processing

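In the averaged IFNγ response, over 24 alternatives, Mtfr2 was between 0.85 and 0.98 (adjusted p from 3.33e-06 to 0.00388) and Tor3a between 0.77 and 0.90 (adjusted p from 2.53e-11 to 0.000897), both called in all 24, and each of the 6 genes kept its sign. In the inhibitor comparisons, a difference changed sign in some alternative for Cpeb4 and Eri2 with A-485 against DMSO, Mtfr2 with either inhibitor against IFNγ, and, between the inhibitors, Tor3a without IFNγ and Mtfr2 with it, all of them near 0. With A-241 against DMSO the 4 genes called stayed called under DESeq2, limma-voom, RLE size factors, no filter, the replicate block and both Gm42418-rich libraries left out. Tor3a lost its call without DMSO replicate 1, A-241 replicate 2 or A-241 replicate 3, Fam117a without A-241 replicate 1, and all 4 in a fit of only the 6 libraries compared. Tor3a with A-485 lost its call without the filter, with the block, in the 6 libraries, and in every fit without 1 library except DMSO replicate 2. Eri2 with A-241+IFNγ lost its call without the filter and without any 1 of the 6 libraries compared, and none of the 6 genes was called in those 6 libraries alone. With A-485+IFNγ, DESeq2 also called Tor3a, Eri2 lost its call without the filter, and no gene of the 6 stayed called with the block, in the 6 libraries or without any 1 of them. The call of Cpeb4 between the inhibitors was lost without A-241 replicate 2 or any 1 A-485 library. The inhibitor libraries chose the genes, so calls of the 6 in inhibitor comparisons are not read as evidence, whether kept or lost.

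Counts of all genes called moved more. Higher with A-241 than DMSO were 99 genes, and 179 by DESeq2, 43 without the filter, 56 with the replicate block, 195 without both Gm42418-rich libraries, 1 in the 6 libraries and 25 to 58 without any 1 library. Lower were 422, then 634 by DESeq2, 791 without both, 74 in the 6 and 224 to 401 without 1. Higher with A-485 than DMSO were 5, then 10 by DESeq2, 3 by limma-voom, 2 without the filter, 1 with the block, 21 without both, 0 in the 6 and 0 to 1 without 1. Lower were 74, then 232 by DESeq2, 277 without both, 0 in the 6 and 28 to 74 without 1. Higher with A-241+IFNγ than IFNγ were 65, then 148 by DESeq2, 39 without the filter, 39 with the block, 236 without both, 1 in the 6 and 16 to 68 without 1. Lower were 424, then 713 without both, 82 in the 6 and 234 to 429 without 1. Higher with A-485+IFNγ than IFNγ were 2, then 22 by DESeq2, 1 without the filter, 0 with the block, 38 without both, 0 in the 6 and 0 to 3 without 1. Lower were 64, then 211 by DESeq2, 29 with the block, 287 without both, 0 in the 6 and 17 to 75 without 1. Higher with A-241 than A-485 were 2, then 16 by DESeq2, 1 without the filter, 1 with the block, 30 without both, 10 in the 6 and 0 to 1 without 1, and with IFNγ 1, then 3 by DESeq2, 2 by limma-voom, 2 with the block, 7 without both and 4 in the 6. In the averaged IFNγ response 208 were higher, then 338 without both and 177 to 255 without 1, and 33 lower, then 62 by DESeq2, 21 with the block, 115 without both and 17 to 50 without 1.

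Of the pathway genes, 1 was higher with A-241 than DMSO, then 2 by DESeq2, 7 without both and 0 in the 6, and 2 lower, then 6 without both, 0 in the 6 and 1 to 3 without 1. With A-241+IFNγ 1 was higher, then 2 by DESeq2, 3 without both, 0 in the 6 and 1 to 2 without 1, and 1 lower, then 2 by DESeq2, 4 without both and 1 to 3 without 1. With A-485 0 were lower than DMSO, then 2 without both, and with A-485+IFNγ 1 was lower than IFNγ, then 3 without both and 0 in the 6. The cause of these moves was not tested, apart from the fewer libraries of some fits. The deviations of libraries with the same replicate number had a median correlation of -0.018, and those with other numbers -0.021. Single pairs ran from -0.80 to 0.48 and from -0.76 to 0.83, so these medians cannot exclude a shared effect of a number. The fit of 6 libraries was run for the inhibitor comparisons alone. Genes at a few CPM, such as Fam117a and Mtfr2, rest on few counts, and a difference could be missed in them at this depth.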
